A study of Homo sapiens with 36 samples.

Results

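Genes of the NF-kappaB pathway and genes known to be switched on by it were followed in 3 mantle cell lymphoma lines treated with GS716054, which the study names as an inhibitor of the KDM5 histone demethylases. The set held 39 genes taken by symbol from the 58302 Ensembl gene identifiers counted, and all 39 symbols matched 1 identifier each. It was made of 12 genes of the canonical arm, 8 of the noncanonical arm, 2 atypical IkappaB genes, 3 feedback genes and 14 target genes. RNA was sequenced from JEKO, MINO and UPN-1 cells, established lines of mantle cell lymphoma (a B-cell lymphoma), grown in RPMI-1640 with serum. Cells of each line received GS716054 or the solvent DMSO and were collected 24 h or 72 h later, with 3 libraries labelled as biological replicates in each of the 12 groups, 36 libraries in all. The dose is not given in the sources used here. Each line is a single cultured line, so a difference between lines is a difference between 3 cultures and not between kinds of tumour.

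NF-kappaB is a family of dimeric transcription factors built from RELA, REL, RELB and the products of NFKB1 and NFKB2. In the canonical arm, receptors and adaptors such as MYD88 activate the IkappaB kinase (IKBKB and CHUK with the scaffold IKBKG), which marks the IkappaB inhibitors for destruction and frees RELA- and REL-containing dimers. In the noncanonical arm, the kinase NIK (MAP3K14) is normally degraded through TRAF3, TRAF2, BIRC2 and BIRC3, and once spared it acts through CHUK to process the NFKB2 product that partners RELB. Many targets of the pathway feed back on it, among them NFKBIA, TNFAIP3 and TNIP1, and both arms are known to sustain survival of mantle cell lymphoma cells. KDM5 enzymes remove methyl groups from lysine 4 of histone H3, a mark of active promoters.

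The kappaB consensus, the DNA motif that NF-kappaB dimers bind, was searched on both strands in RefSeq promoter windows (GRCh38.p14), each running from 250 bases before to 50 bases after an annotated start. Windows were found for 34 of the 39 genes, and 18 of those 34 (52.9%) held at least 1 match in any of their windows. Over all genes with a window, 3619 of 27305 (13.25%) did. The 250 upstream bases are shown for 5 genes that later results turn on and whose window held a match outside any annotated exon, and for PLEK, whose window held none. The windows of MYD88 and BCL10, which later results also turn on, held no match either. Matches in other genes, among them CYLD, IRF1 and TRAF3, are not printed, and no window was found for CCL4. Of the genes shown, BIRC3 and NFKBIA were called in a treatment comparison only with the replicate block described below. The genes shown with a match were all called higher in MINO. With that block, IRF1 and TRAF3 were called lower in JEKO at 72 h, and IRF1 higher in MINO. Capitals mark the bases covered by matches, each sequence reads 5′ to 3′ on the gene's strand and ends just before the start, and overlapping matches were counted separately.
CD83 (chr6:14117522-14117771, plus strand): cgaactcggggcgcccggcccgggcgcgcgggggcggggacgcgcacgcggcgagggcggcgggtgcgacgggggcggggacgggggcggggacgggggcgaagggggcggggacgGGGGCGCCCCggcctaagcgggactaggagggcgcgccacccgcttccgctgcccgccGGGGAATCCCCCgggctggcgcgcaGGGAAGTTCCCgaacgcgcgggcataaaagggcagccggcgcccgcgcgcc
CCL22 (chr16:57358533-57358782, plus strand): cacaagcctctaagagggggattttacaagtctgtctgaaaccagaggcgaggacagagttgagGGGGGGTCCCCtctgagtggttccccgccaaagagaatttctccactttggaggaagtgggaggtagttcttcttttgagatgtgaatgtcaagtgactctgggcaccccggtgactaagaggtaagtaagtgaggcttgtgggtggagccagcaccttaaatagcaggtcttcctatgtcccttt
EBI3 (chr19:4229273-4229522, plus strand): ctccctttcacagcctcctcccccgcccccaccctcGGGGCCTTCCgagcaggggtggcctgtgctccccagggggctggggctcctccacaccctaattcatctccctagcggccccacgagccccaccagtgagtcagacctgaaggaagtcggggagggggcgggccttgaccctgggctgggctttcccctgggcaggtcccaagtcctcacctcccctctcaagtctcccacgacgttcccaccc
BIRC3 (chr11:102317234-102317483, plus strand): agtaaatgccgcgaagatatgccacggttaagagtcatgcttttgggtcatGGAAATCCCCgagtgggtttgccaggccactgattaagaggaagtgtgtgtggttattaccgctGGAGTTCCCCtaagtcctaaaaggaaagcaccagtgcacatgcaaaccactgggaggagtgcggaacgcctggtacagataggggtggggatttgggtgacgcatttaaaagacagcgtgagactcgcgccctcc
NFKBIA (chr14:35404750-35404999, minus strand): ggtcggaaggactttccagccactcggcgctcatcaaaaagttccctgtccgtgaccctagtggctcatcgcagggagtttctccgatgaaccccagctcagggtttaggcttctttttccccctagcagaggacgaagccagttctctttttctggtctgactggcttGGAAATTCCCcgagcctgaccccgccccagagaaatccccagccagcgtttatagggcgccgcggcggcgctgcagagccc
PLEK (chr2:68365032-68365281, plus strand): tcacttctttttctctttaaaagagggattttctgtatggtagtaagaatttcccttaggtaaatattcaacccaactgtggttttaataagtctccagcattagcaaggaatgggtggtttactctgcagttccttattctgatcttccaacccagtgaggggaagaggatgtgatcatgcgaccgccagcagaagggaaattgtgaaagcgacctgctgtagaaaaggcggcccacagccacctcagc
The CD83 window held 6 matches in 3 stretches, which began 134, 76 and 51 bases before its start, and a second CD83 window further upstream held none. CCL22 had 2 overlapping matches that began 186 and 185 bases upstream, EBI3 had 1 at 214 bases, BIRC3 had 2 at 199 and 135 bases, and NFKBIA had 1 at 81 bases. A match describes these letters only. Binding was not measured in these libraries.

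Libraries held between 8784815 and 14970876 reads counted in genes (median 11926903). Levels are given as CPM, the counts of a gene relative to all gene reads of its library, scaled by the trimmed mean of M-values (TMM) over all 36 libraries, and 3 reads were worth 0.196 to 0.353 CPM. All 10 fixed B-cell and mantle cell lymphoma markers were above 1 CPM in each line at 24 h, led by CCND1 in all DMSO groups. CD2, 1 of 6 T-cell markers, had no read in any 24 h group, but other T-cell markers were read. The highest in MINO was CD8A, at 4.3 CPM in DMSO and 11.18 CPM in GS716054. In JEKO it was CD3G (1.11 and 2.05 CPM) and in UPN-1 CD8A (0.901 and 1.335 CPM). Summed marker levels of other lineages at 24 h were 1.39 to 25.1 CPM for T cells, 0.749 to 10.3 CPM for monocytes and macrophages, 3.08 to 95.7 CPM for NK cells (almost all PRF1) and 3.7 to 22.8 CPM for stromal and endothelial cells (mostly PECAM1). These are bulk libraries, in which fewer cells expressing a gene and less RNA per cell cannot be told apart.

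Before any treatment effect, the lines differed in how much of the pathway they carried. At 24 h in DMSO, the median of the 39 genes per kb of transcript was highest in MINO (13.9 CPM per kb), then in JEKO (7.14) and UPN-1 (5.69). Above 1 CPM were all 39 genes in MINO, 38 in JEKO and 35 in UPN-1. In edgeR's quasi-likelihood test over all 36 libraries, at an adjusted p under 0.05, 18 genes were higher and 5 lower in MINO than in JEKO, beside 22% and 25.9% of the 17980 genes tested. In UPN-1 against JEKO, 6 were higher and 19 lower, where the background was 21.2% and 23.8%, and in UPN-1 against MINO 2 were higher and 25 lower, where it was 23.3% and 21.1%. The median log2 difference of the 39 genes was 0.47 for MINO over JEKO, -0.57 for UPN-1 over JEKO and -1.20 for UPN-1 over MINO, while the medians of all genes were -0.07, -0.04 and 0.03.

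**Figure D1:**
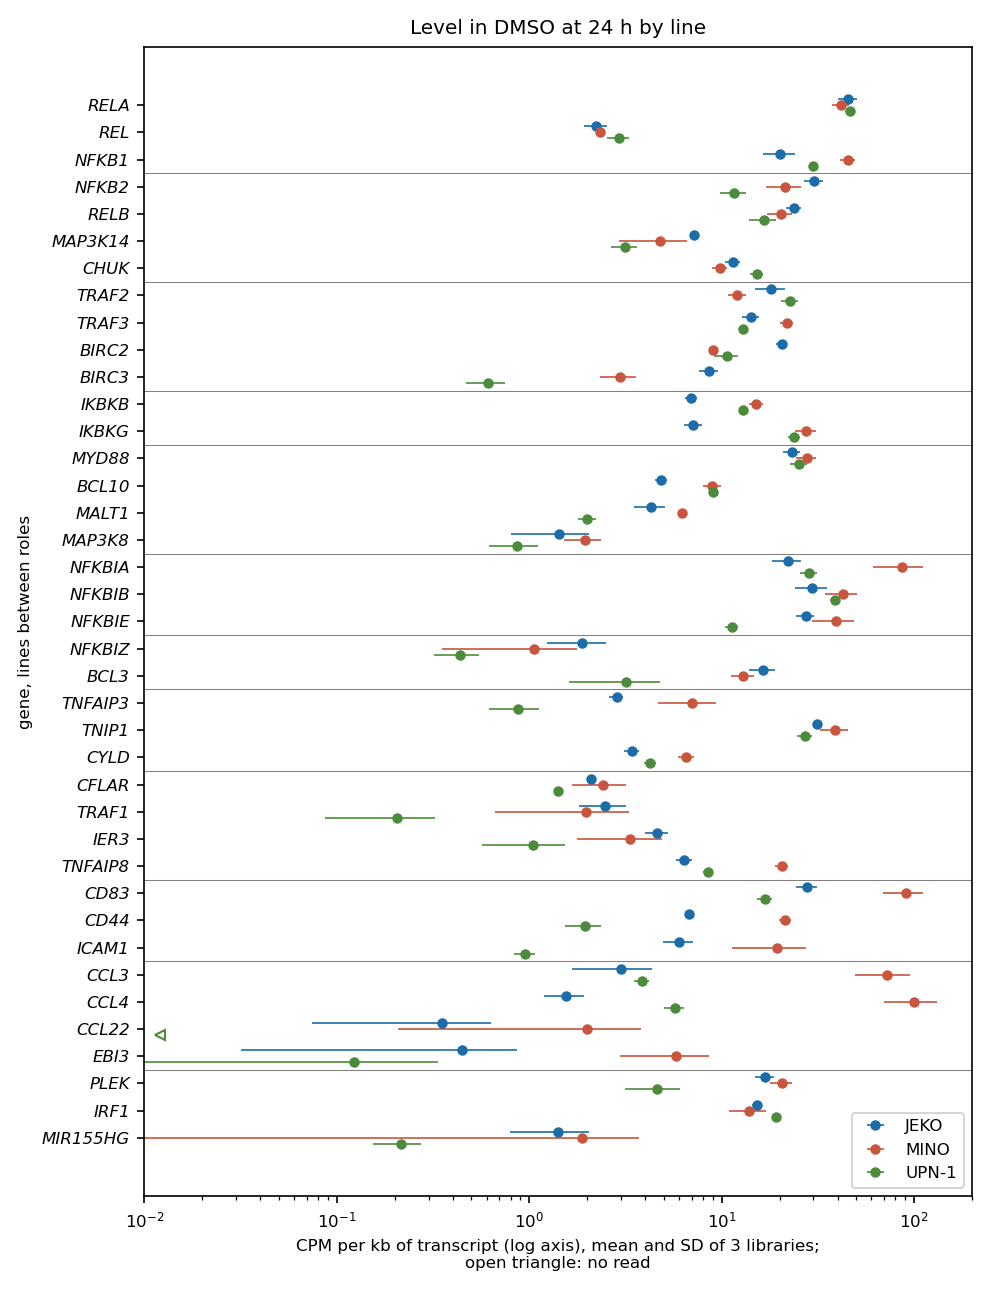
Level of each of the 39 genes in DMSO at 24 h, as CPM per kb of Ensembl canonical transcript on a log axis, with the mean and SD of 3 libraries per line (bars that reach below the axis are cut there). RELA sits at 41.8 to 46.6 CPM per kb in all 3 lines, CCL4 is highest in MINO at 100.5, and CCL22 has no read in UPN-1 (open triangle).

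Of the subunits, RELA was even across lines. RELA, the main activating subunit, stood at 45.5 ± 5.06 CPM per kb in JEKO, at 41.8 ± 4.2 for MINO and at 46.6 ± 2.74 for UPN-1 (mean ± SD, n = 3), and no pair of lines was called different. NFKB1, the gene of p105 and p50, was higher in MINO than in JEKO (log2 difference 1.17, adjusted p = 1.13e-09) and than in UPN-1. RELA, REL, MYD88, IRF1, TNIP1 and MAP3K8 were the 6 genes called in none of the 3 comparisons of lines, and 12 genes were called in all 3. The comparisons called 48% (MINO against JEKO), 44.9% (UPN-1 against JEKO) and 44.4% (UPN-1 against MINO) of all genes. The shares of all genes called in none or in all 3 are not given here. NFKB2, which supplies p52, was lower in UPN-1 than in JEKO by a log2 value of -1.38 (SE 0.22), and MINO and JEKO did not differ past the threshold (adjusted p = 0.0567).

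Genes that hold the noncanonical arm in check differed in both directions. BIRC3, a ubiquitin ligase that targets NIK, read 66.5, 54.9 and 56 CPM in the 3 JEKO libraries, 16.1, 24.7 and 20.2 in MINO, and 3.96, 5.24 and 3.37 in UPN-1. The 3 lines did not overlap, and BIRC3 was lower in MINO than in JEKO by a log2 value of -1.54 (SE 0.30) and in UPN-1 than in JEKO by -3.83 (SE 0.35). BIRC2, its paralogue, was also lower than in JEKO in both lines, with log2 values of -1.18 and -0.94. TRAF3, the adaptor that brings NIK to these ligases, was higher in MINO than in JEKO (0.62) and than in UPN-1.

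The kinase scaffold, the main inhibitor and A20 were all higher in MINO than in JEKO. IKBKG, the IkappaB kinase scaffold, was higher in MINO (log2 1.94) and UPN-1 (1.74) than in JEKO, and since it has a near-identical pseudogene copy its counts are uncertain. NFKBIA, the main IkappaB inhibitor, averaged 86.1 ± 24.6 CPM per kb in MINO, 22.04 ± 3.77 in JEKO and 28.5 ± 2.84 in UPN-1. Its level was higher in MINO than in JEKO by a log2 value of 1.97 (SE 0.25), while JEKO and UPN-1 were not called different. TNFAIP3, which encodes the ubiquitin-editing enzyme A20, was higher in MINO than in JEKO (1.31) and lower in UPN-1 than in JEKO (-1.72).

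Several target genes differed by large factors. CCL4, a chemokine for monocytes and T cells, read 43.1, 80.6 and 75.3 CPM in the MINO libraries, between 0.77 and 1.25 in JEKO and between 3.38 and 4.25 in UPN-1. CCL4 was higher in MINO than in JEKO by a log2 value of 6.01 (SE 0.49), and its neighbour CCL3 by 4.60 (SE 0.51). Both lie in a cluster with near-identical copies, and 74.6% of the exonic bases of CCL3 overlap an antisense gene, so counts of this pair are uncertain. Whether counting used the strand is not given in the sources used here, and an opposite-strand gene also covers 38.9% of the exonic bases of IER3, 25.4% of ICAM1, 22.9% of IRF1, 15.1% of MAP3K14, 10.1% of CFLAR and 5.6% of BCL10, so their counts may hold reads of that gene. CCL22, a chemokine that attracts CCR4-bearing T cells, had 0 reads in the UPN-1 libraries. Against the floor of 3 reads per library it was at least 18.2-fold higher in MINO and at least 3.21-fold higher in JEKO. Those bounds rested on 1 library each, and came to 9.28 without MINO replicate 2 and to 1.75 without JEKO replicate 1. ICAM1, an adhesion molecule, and CD44, a hyaluronan receptor, were lower in UPN-1 than in MINO by log2 values of -4.33 and -3.45.

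By the test without a replicate block, genes of the set passed the threshold in MINO and none passed in JEKO or UPN-1. In MINO, 6 of 39 genes were higher at 24 h, beside 1.44% of the 15028 genes tested being higher, and 5 of 39 were higher at 72 h, beside 3.51%. None was lower at either time. In JEKO, 0 of 39 were called at 24 h (background 0.018%) and 0 at 72 h (0.3%). For UPN-1 the test likewise gave 0 of 36 genes at the early time (0.0262%) and 0 at the late one (0.334%). CCL22, EBI3 and MIR155HG had too few reads to be tested in UPN-1. At an unadjusted p under 0.05, edgeR gave 0 genes (24 h) and 5 genes (72 h) for JEKO, and 0 and 2 for UPN-1, against 19 and 13 for MINO. Over all genes tested, those unadjusted shares were 3.97% and 8.62% for JEKO, 3.78% and 7.41% for UPN-1, and 17.7% and 22.2% for MINO. DESeq2 called 0, 3, 0 and 0 members in those JEKO and UPN-1 comparisons, where it called 0.186%, 1.36%, 0.138% and 1.08% of all genes.

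Libraries with the same replicate number deviated together in part, weakly at 24 h and more at 72 h. Within a time, the deviations of GS716054 and DMSO libraries from their group means were correlated over genes. The correlations were 0.06 to 0.27 at 24 h and 0.29 to 0.59 at 72 h. Every correlation was above 0.1, the limit set for pairing, in 5 of the 6 comparisons, the exception being JEKO at 24 h. A fit with the replicate number within each time as a block, which compares libraries of the same number and was chosen after the data were seen, called more genes. In MINO it called 22 genes higher at 24 h (background 8.43%) and 15 higher at 72 h (10.4%), and none lower. It called 3 genes lower in JEKO at 72 h (1.44%), 0 in UPN-1 at 24 h (1.5%) with 5 at an unadjusted p under 0.05 (13.3% of all genes), and, at 72 h, 3 lower in UPN-1 (3.29%).

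**Figure D2:**
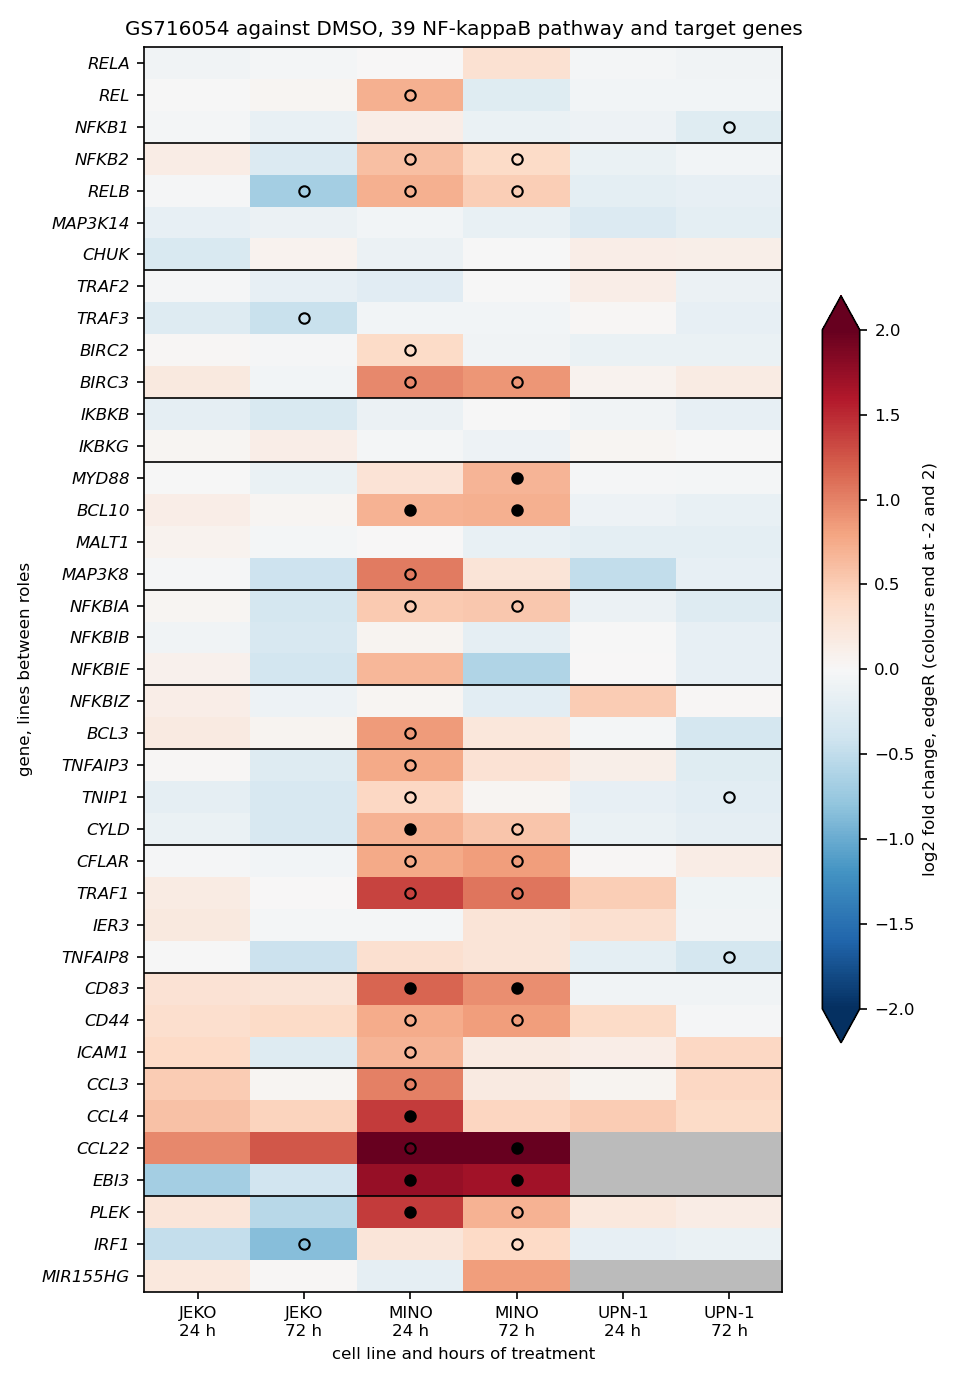
Log2 fold change of GS716054 over DMSO for the 39 genes (rows, with lines between roles) in 3 lines at 2 times (columns). Filled circles mark genes called by edgeR without a replicate block, open circles those called with it where replicate numbers paired, and grey marks genes not tested. Filled circles stand only in the MINO columns, 6 at 24 h and 5 at 72 h.

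The median log2 fold change of the 39 genes in MINO was 0.60 (24 h) and 0.25 (72 h), where that of all genes was 0.01 and -0.03, and 31 and 26 of 39 values were above 0 (50.65% and 47.29% of all genes). The median was 0.02 and -0.11 in JEKO and -0.03 and -0.13 in UPN-1. In those lines 21 and 12 of 39 values, and 16 and 8 of 36 values, were above 0. Over all genes these shares were 48.86% and 50.49% in JEKO and 50.03% and 49.46% in UPN-1. Of the 39 genes, 27 were called in at least 1 comparison by either fit, the block counting only where numbers paired, and the 16 of these with the smallest p are given in every library of the comparison concerned.

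Of the target genes for surface and adhesion proteins, CD83 moved at both times in MINO. CD83 (chr6:14117256-14136918, plus strand) encodes a surface protein of activated B cells and dendritic cells. At 24 h in MINO it read 153, 247 and 231 CPM in DMSO and 343, 625 and 476 CPM in GS716054 (replicates 1, 2 and 3). The groups did not overlap, and CD83 rose by a log2 value of 1.17 (SE 0.23, adjusted p = 0.0258). At 72 h it read 133, 168 and 131 CPM in DMSO against 332, 249.3 and 242 CPM in GS716054. Again no treated library reached down to a control one, and it rose by 0.92 (SE 0.23, adjusted p = 0.0372). Over the same times CD83 lay between 55.3 and 95.2 CPM in the JEKO libraries and between 24.4 and 42.1 CPM in the UPN-1 libraries, with no call in either. CD44 and ICAM1 had log2 fold changes of 0.74 and 0.67 at 24 h in MINO (adjusted p = 0.284 and 0.274), and both rose with the block (adjusted p = 0.00212 and 0.00376). Leaving out 1 library moved the ICAM1 value between 0.25 (without GS716054 replicate 2) and 1.04 (without DMSO replicate 2), and CD44 between 0.50 and 0.83. At 72 h CD44 had 0.83 (adjusted p = 0.172, and 0.00031 with the block), and ICAM1 had 0.18 and was not called by either fit (0.411 with the block).

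The cytokine genes CCL22 and EBI3 rose by more than CD83. CCL22 (chr16:57358783-57366189, plus strand) read 1.77, 2.36 and 1.76 CPM in the MINO DMSO libraries at 72 h and 33.1, 22.6 and 24.4 CPM in the treated ones. The groups were far apart, and CCL22 rose by a log2 value of 3.77 (SE 0.74, adjusted p = 0.0111). At 24 h its replicates spread widely, with 1.29, 11.6 and 4.67 CPM in DMSO and 19.7, 76.4 and 12.9 CPM in GS716054. The lowest treated library was above the highest control one, yet the log2 fold change of 2.57 (SE 0.67) missed the threshold (adjusted p = 0.063) and passed it with the block (adjusted p = 0.000141). In JEKO, CCL22 stayed at or under 5.99 CPM in all 12 libraries, with log2 fold changes of 0.97 and 1.25 that were not called.

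EBI3 (chr19:4229523-4237528, plus strand), a subunit of the cytokines IL-27 and IL-35, rose at both times in MINO. It read 3.65, 10.2 and 6.34 CPM in DMSO and 14.4, 40.9 and 14.6 CPM in GS716054 at 24 h. Treated libraries were all above control ones, and EBI3 rose by 1.75 (SE 0.41, adjusted p = 0.0446). The 72 h libraries read 6.07, 6.1 and 7.44 CPM in DMSO against 22.5, 18.1 and 22.9 CPM in GS716054, a rise of 1.68 (SE 0.41, adjusted p = 0.0312). In JEKO it was at or under 1.59 CPM in every library and in UPN-1 at or under 0.428 CPM.

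CCL4 (chr17:36103827-36105621, plus strand) rose at 24 h. In MINO it read 43.1, 80.6 and 75.3 CPM in DMSO and 115, 257 and 167 CPM in GS716054 at 24 h. The groups did not overlap, and the log2 fold change was 1.40 (SE 0.33, adjusted p = 0.046). At 72 h the libraries read 63.5, 105 and 58.9 CPM in DMSO and 138, 85.6 and 83.2 CPM in GS716054, groups that overlapped, with a log2 fold change of 0.43 (SE 0.33, adjusted p = 0.479). CCL3 read 36.9, 71.7 and 60.1 CPM in DMSO and 83.5, 147 and 116 CPM in GS716054 at 24 h, groups that did not overlap. Its log2 fold change of 1.00 (SE 0.32) missed the threshold (adjusted p = 0.121) and passed it with the block (adjusted p = 0.00396), and at 72 h it was 0.18 and not called. The change in CCL4 between the 2 times was itself not called (adjusted p = 0.962).

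**Figure D3:**
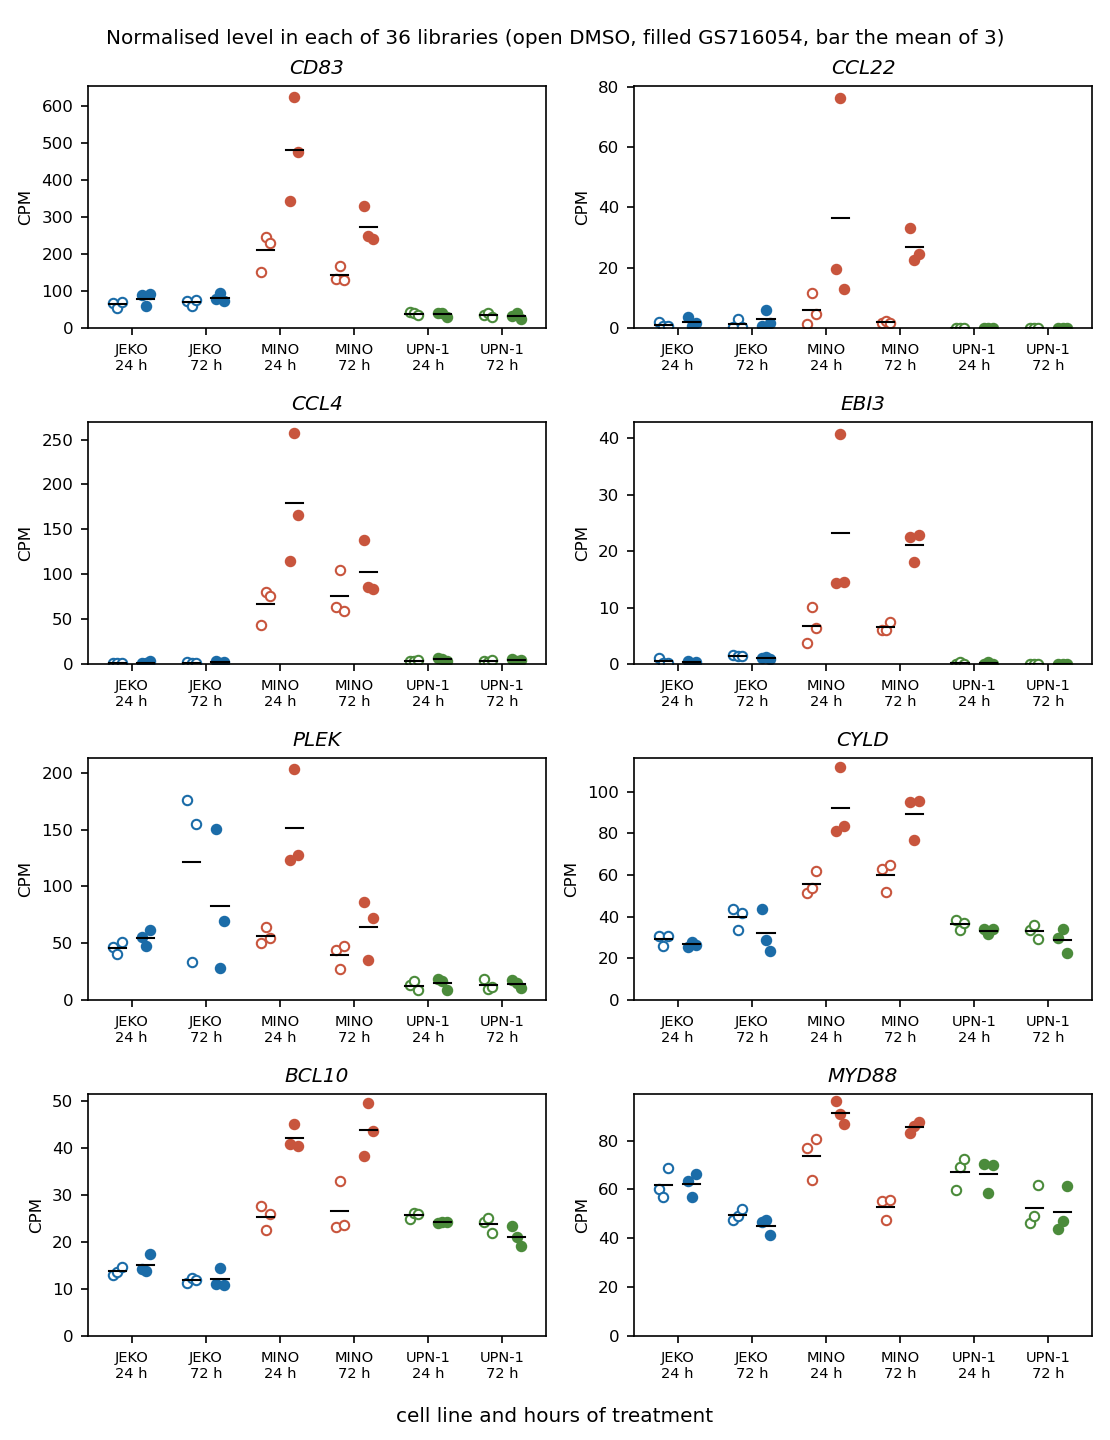
CPM of the 8 genes called in MINO at either time, in each of the 36 libraries, by line and hours (open points DMSO, filled points GS716054, bars the mean of 3, linear axes from 0). Treated MINO libraries lie above the MINO controls of the same time wherever the gene was called, for example 242 to 332 against 131 to 168 CPM for CD83 at 72 h.

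Of the remaining target genes, PLEK was called at 24 h. PLEK (chr2:68365282-68397453, plus strand) encodes pleckstrin, a protein kinase C substrate of blood cells. It read 50.6, 64.6 and 54.3 CPM in DMSO and 124, 203 and 128 CPM in GS716054, with no overlap, and rose by a log2 value of 1.39 (SE 0.31, adjusted p = 0.0367). At 72 h the log2 fold change was 0.70 (adjusted p = 0.206, and 0.0034 with the block), where the treated library of replicate 2 (35.4 CPM) lay below 2 of the controls. IRF1, an interferon-response transcription factor, read 41.7, 33.7 and 45.1 CPM in DMSO and 46, 54.8 and 60.7 CPM in GS716054 at 72 h in MINO. The treated libraries were all above the controls by a small margin, and the log2 fold change of 0.40 was called only with the block (adjusted p = 0.206 and 0.0317). MIR155HG, the host transcript of miR-155, was not called at any time in MINO.

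Of the 4 survival genes, CFLAR and TRAF1 rose in MINO with the block and none rose without it. CFLAR, an inhibitor of caspase-8, read 25.8, 47.4 and 33 CPM in DMSO and 50.8, 85 and 47.7 CPM in GS716054 at 24 h. The lowest treated library was just above the highest control one, and the log2 fold change was 0.76 (SE 0.24, adjusted p = 0.116, and 0.00165 with the block). At the later time CFLAR read 45.7, 46.7 and 49.6 CPM against 86, 95.9 and 74.1 CPM, clearly apart, with a log2 fold change of 0.84 (adjusted p = 0.0569, and 0.00052 with the block). TRAF1, a signalling adaptor induced by NF-kappaB, had log2 fold changes of 1.36 and 1.08 (adjusted p = 0.155 and 0.189), and both passed with the block (0.00143 and 0.00509). IER3 and TNFAIP8 were not called in MINO by either fit.

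Of the upstream adaptors, MYD88 and BCL10 rose in MINO. MYD88 (chr3:38138552-38143024, plus strand) links Toll-like and interleukin-1 receptors to the pathway. At 72 h it read 55.1, 47.6 and 55.6 CPM in DMSO and 83, 86.1 and 87.6 CPM in GS716054. The treated libraries were close together and well above the controls, and MYD88 rose by a log2 value of 0.68 (SE 0.12, adjusted p = 0.0075). At 24 h it read 76.8, 63.9 and 80.6 CPM against 96.3, 91.1 and 86.7 CPM, groups that did not overlap, with a log2 fold change of 0.28 that was not called (adjusted p = 0.251). BCL10 (chr1:85265776-85276632, minus strand) encodes an adaptor of B-cell receptor signalling. It read 27.7, 22.5 and 26 CPM in DMSO and 40.8, 45.1 and 40.3 CPM in GS716054 at 24 h, with no overlap, a rise of 0.70 (SE 0.16, adjusted p = 0.0373). At 72 h it read 23.2, 33 and 23.5 CPM against 38.4, 49.5 and 43.7 CPM, again with no overlap, a rise of 0.71 (SE 0.16, adjusted p = 0.0202). MALT1, a protease, was not called (log2 fold change 0.01 at 24 h and -0.14 at 72 h). MAP3K8, the kinase TPL2, had 1.04 at 24 h (adjusted p = 0.198) and passed with the block (0.0157), though the value came to 0.55 without GS716054 replicate 2. At 72 h MAP3K8 had 0.25 and was not called (0.384 with the block).

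Of the feedback genes, CYLD, a deubiquitinase that brakes the pathway, was called without the block. CYLD (chr16:50742050-50801935, plus strand) read 51.5, 54 and 61.8 CPM in DMSO and 81.1, 112 and 83.7 CPM in GS716054 at 24 h in MINO. The groups were apart, and CYLD rose by a log2 value of 0.69 (SE 0.16, adjusted p = 0.0406). The later libraries read 63, 51.7 and 65 CPM against 95.2, 76.9 and 95.6 CPM, also apart, with a log2 fold change of 0.56 (adjusted p = 0.0582, and 0.00488 with the block). TNFAIP3 and its partner TNIP1 had log2 fold changes of 0.76 and 0.42 at 24 h, which passed only with the block (adjusted p = 0.00462 and 0.0336), and 0.29 and 0.05 at 72 h, which did not pass.

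No IkappaB gene was called without the block. NFKBIA had log2 fold changes of 0.53 and 0.54 in MINO (adjusted p = 0.297 and 0.229), and both passed with the block (0.0168 and 0.0203). BCL3, an atypical IkappaB that works with p50 and p52, read 23.3, 27.9 and 21.7 CPM in DMSO and 35.1, 58.5 and 39.9 CPM in GS716054 at 24 h. Its groups did not overlap, and its log2 fold change of 0.84 (SE 0.22, adjusted p = 0.0657) passed only with the block (0.00344). At 72 h BCL3 had 0.22 (adjusted p = 0.295 with the block). At 72 h the DMSO library of MINO replicate 2 stood apart for several genes. NFKBIE read 387 CPM in it against 83.4 and 91.1 in the other controls, and its log2 fold change was -0.59 (SE 0.45) and not called. TNIP1 and CD44 were also highest in replicate 2 at that time, in both arms (352 and 323 CPM in DMSO, 321 and 516 CPM in GS716054).

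Among the dimer subunits, the noncanonical pair RELB and NFKB2 rose with the block. RELB read 38.2, 51.1 and 47.7 CPM in DMSO and 63.3, 98 and 67.7 CPM in GS716054 at 24 h in MINO. Treated libraries were all higher, and its log2 fold change of 0.71 (SE 0.20) had an adjusted p of 0.0832 without the block and 0.00264 with it. NFKB2 had 0.60 (adjusted p = 0.159, and 0.00169 with the block). At 72 h RELB had 0.50 and NFKB2 0.38 (0.0109 and 0.0183 with the block). REL, the subunit c-Rel, had 0.71 at 24 h (adjusted p = 0.193, and 0.00224 with the block) and -0.24 at 72 h. RELA and NFKB1 were called at neither time, with early log2 fold changes of 0.01 and 0.13 and late ones of 0.30 and -0.13.

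The kinases and the complex that degrades NIK gave few calls. IKBKB, IKBKG, CHUK and MAP3K14 had log2 fold changes between -0.15 and -0.01 in MINO at both times and were not called by either fit. BIRC3 read 16.1, 24.7 and 20.2 CPM in DMSO and 31.2, 55.6 and 34.7 CPM in GS716054 at 24 h, with no overlap. Its log2 fold change of 0.96 (SE 0.31, adjusted p = 0.122) passed with the block (0.00403), as did 0.88 at 72 h (0.108 and 0.00437). BIRC2 passed with the block at 24 h (0.38, adjusted p = 0.331 and 0.0401) and had -0.06 at 72 h (0.699 with the block), and TRAF2 and TRAF3 were not called in MINO. By arm, the block called 4 of 12 canonical, 4 of 8 noncanonical, 1 of 2 atypical, 3 of 3 feedback and 10 of 14 target genes higher at 24 h. At 72 h these counts were 3, 3, 0, 1 and 8. Over all genes, the block called 8.43% higher at 24 h and 10.4% at 72 h. The 4 noncanonical genes at 24 h were RELB and NFKB2, with BIRC2 and BIRC3 of the complex that degrades NIK, so the count is no reading of that arm's activity.

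**Figure D4:**
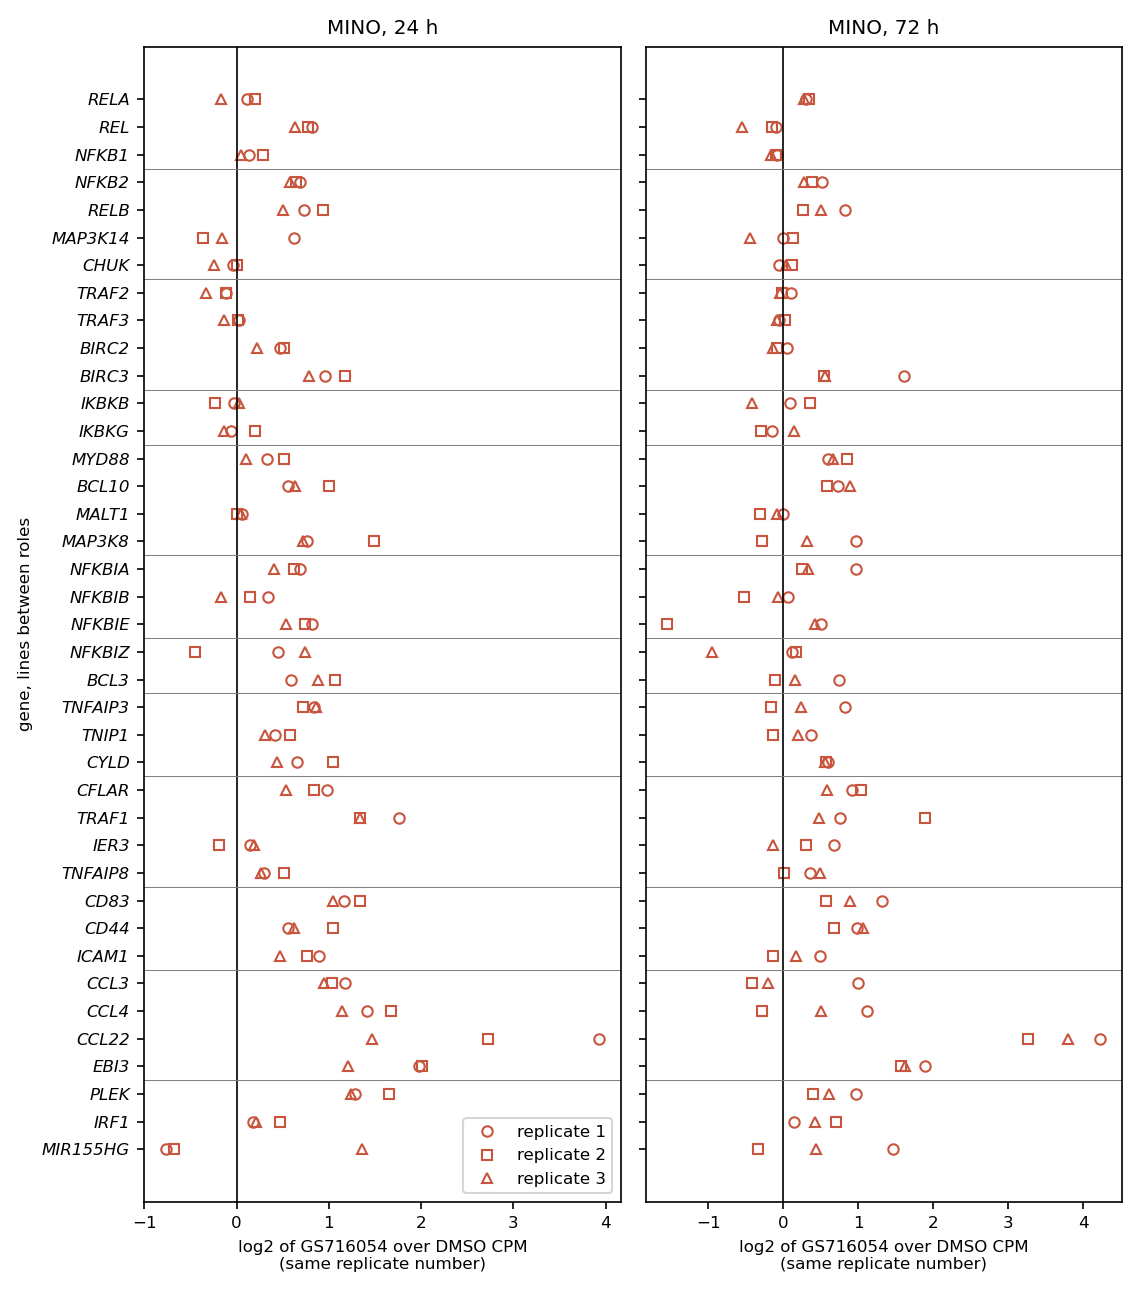
Log2 ratio of GS716054 to DMSO CPM in MINO for each replicate number (circle 1, square 2, triangle 3) and each of the 39 genes, at 24 h (left) and 72 h (right). All 3 CCL22 ratios are above 0 at both times, the MAP3K14 ratios at 24 h lie on both sides of 0, and replicate 2 gives the lowest NFKBIE ratio at 72 h.

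The counts of calls in MINO changed when 1 library was left out, which leaves 2 samples in an arm. The share of all genes called in such fits, or without a pair, is not given here. The counts therefore do not speak for the 39 genes alone. Without any 1 of the 6 libraries at 24 h, 0 of the 39 genes were called, except without GS716054 replicate 1, where CD83 remained (adjusted p = 0.0332). The log2 fold changes then ranged from 0.93 to 1.34 for CD83, 1.05 to 2.17 for EBI3, 1.05 to 1.62 for CCL4, 1.12 to 1.503 for PLEK, 0.53 to 0.77 for CYLD and 0.62 to 0.77 for BCL10. At 72 h, leaving out a DMSO library gave 1 call (replicate 1 or 3) or 8 calls (replicate 2), and leaving out a GS716054 library gave 3 (replicate 1 or 3) or 7 (replicate 2). MYD88 was called in all 6 of these fits (adjusted p from 0.0115 to 0.0311). BCL10 and CCL22 lost their 72 h calls without DMSO replicate 1 or 3, CD83 also without GS716054 replicate 1 or 3, and EBI3 without any library but GS716054 replicate 2. With the block, leaving out pair 2 at 24 h left 9 calls of 22, and leaving out pair 1 or pair 3 left 17. For 72 h it left 11, 18 and 14 calls without pairs 1, 2 and 3.

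Markers of the line's own and of other cell types differed between the arms of the same MINO libraries. At 24 h the 10 B-cell markers summed to 4987 to 5887 CPM in DMSO and 7640 to 8115 CPM in GS716054. The highest of them was CCND1 in DMSO (mean 1934 CPM) and CD79A in GS716054 (mean 1958 CPM). The 6 T-cell markers summed to 6.08 to 8.81 and 12.1 to 25.1 CPM, led by CD8A and with CD3D and CD2 at 0 reads in both groups. The 6 monocyte and macrophage markers summed to 2.64 to 3.59 and 7.97 to 10.3 CPM, led by LYZ and with FCGR3A at 0 reads. The 5 NK-cell markers summed to 54.4 to 68.8 and 87.4 to 95.7 CPM, led by PRF1 and with NCAM1 and KLRD1 at 0 reads. At 72 h the B-cell sums were 5211 to 7288 CPM in DMSO and 7397 to 9529 CPM in GS716054, led by CCND1 (means 2256 and 2634 CPM). The 6 stromal and endothelial markers, led by PECAM1 and with COL1A2, VWF and DCN at 0 reads, summed to 4.96 to 6.1 and 14.96 to 26.2 CPM. The part of these markers in the results of the NF-kappaB genes was not tested.

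Of the genes called higher in MINO, 3 (BCL10, CD83 and EBI3) were called at both times, 50% of the 24 h list and 60% of the 72 h list. With the block 13 were, 59.1% of the 24 h list and 86.7% of the 72 h list. Over all genes called higher in MINO, 134 were called at both times, 62% of the 24 h list and 25.4% of the 72 h list, and with the block 728 were, 57.5% and 46.8%. Tested directly, the effect at 72 h against that at 24 h gave 0 of 39 genes in edgeR (background 0.0133%), 2 at an unadjusted p under 0.05 (5.02% of all genes) and 0 in DESeq2. With the block, 1 gene differed (background for lower effects 0.492%). This was REL, whose effect was lower at 72 h by a log2 value of -0.98 (SE 0.18, adjusted p = 0.0241). REL read 25.2, 26 and 26.1 CPM in DMSO and 44.3, 44.4 and 40.3 CPM in GS716054 at 24 h, and 32.5, 55.7 and 31.1 CPM against 30.3, 50.3 and 21.2 CPM at 72 h. Treated libraries were all above controls at 24 h, and at 72 h each was below its control of the same number.

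In JEKO at 72 h, 27 of 39 log2 fold changes were below 0, where 50.49% of all genes were above 0. RELB read 153, 105 and 123 CPM in DMSO and 86.9, 82.9 and 67.4 CPM in GS716054. No treated library reached the controls, and the log2 fold change of -0.68 (SE 0.17) was called only with the block (adjusted p = 0.14 and 0.014). IRF1 read 123, 65.8 and 112 CPM in DMSO and 72.2, 42.4 and 51.7 CPM in GS716054. Here DMSO replicate 2 was low and the groups overlapped, though within each number the treated library was lower. The log2 fold change of IRF1 was -0.85 (SE 0.22, adjusted p = 0.157). IRF1 was called lower than in DMSO with the block (adjusted p = 0.0031), and without DMSO replicate 2 it passed without the block too (adjusted p = 0.0323). The JEKO controls of both genes were higher at 72 h than at 24 h, a difference that was not tested. Mean RELB was 126.6 CPM in DMSO at 72 h, 53.6 CPM in DMSO at 24 h and 79.1 CPM in GS716054 at 72 h. Mean IRF1 was, in the same order, 100.1, 54.5 and 55.45 CPM. Mean TRAF3, described next, was 111.3 CPM in DMSO at 24 h and 111.1 CPM at 72 h.

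TRAF3 read 104, 111 and 119 CPM in DMSO and 81.5, 88 and 73.8 CPM in GS716054 at 72 h in JEKO. The groups were apart, and the log2 fold change of -0.45 (SE 0.12, adjusted p = 0.19) passed with the block (0.047). Leaving out a pair cut the 3 blocked calls in JEKO to 1 (pair 1 or pair 3) or 2 (pair 2). PLEK, which rose in MINO at 24 h, read 176, 33.5 and 155 CPM in the JEKO controls at 72 h and was not called there. The 3 IkappaB inhibitors and the 3 feedback genes all had negative log2 fold changes at 72 h, between -0.36 and -0.25, and none was called. In the same JEKO libraries the 10 B-cell markers summed to 3872 to 4787 CPM in DMSO and 2803 to 3837 CPM in GS716054. CCND1 led this sum in both groups, with a mean of 2439 CPM in DMSO and 1538 CPM in GS716054. The sum therefore follows CCND1 in large part, and the other B-cell markers are not given singly. The 6 T-cell markers, with CD2 at 0 reads, summed to 2.14 to 3.03 and 5.91 to 10.3 CPM. They were led by CD8A in DMSO and CD3G in GS716054. The part of either marker set in the JEKO results was not tested.

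In UPN-1 at 72 h, 28 of 36 log2 fold changes were below 0, where 49.46% of all genes were above 0. TNFAIP8, an apoptosis regulator, read 48.1, 50.4 and 51.4 CPM in DMSO and 38.2, 43.6 and 34 CPM in GS716054. The groups did not overlap, and the log2 fold change was -0.36 (SE 0.12, adjusted p = 0.373, and 0.00978 with the block). NFKB1 and TNIP1 had -0.25 and -0.22 and also fell with the block (adjusted p = 0.0351 and 0.0475). With 1 library left out, NFKB1 ranged from -0.32 to -0.16 (lowest in size without GS716054 replicate 2) and TNIP1 from -0.40 to -0.04 (without DMSO replicate 3 and GS716054 replicate 3). The 3 blocked calls came down to 0 without pair 1, 2 without pair 2 and 1 without pair 3. The 5 NK-cell markers summed to 7.13 to 11.9 CPM in DMSO and 13.2 to 17.5 CPM in GS716054 in these libraries. PRF1 led them, KLRD1 had 0 reads in both groups, and their part in the UPN-1 results was not tested.

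Whether the effect differed among the 3 lines was tested jointly for all 3, in 1 interaction test over all 36 libraries. A call in it does not say which line differed. At 24 h, 0 of 39 genes were called (background 0.106%), with 7 at an unadjusted p under 0.05 (7.37% of all genes) in edgeR, the only tool run for this test. With the replicate number within line and time as a block, 11 of 39 were called (background 5.74%), although JEKO numbers did not pair at 24 h. At 72 h, MYD88, BCL10 and IRF1 were called, 3 of 39, beside 1.01% of the 17980 genes tested. MYD88 had a log2 fold change of 0.68 in MINO, against -0.13 for JEKO and -0.03 for UPN-1 (interaction adjusted p = 0.0236). In the same order BCL10 had 0.71, 0.04 and -0.15 (adjusted p = 0.0333), and IRF1 had 0.40, -0.85 and -0.14 (adjusted p = 0.0311).

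The count of 3 came to 0 when MINO DMSO replicate 1, or either of MINO GS716054 replicates 2 and 3, was left out, and to 1 when MINO DMSO replicate 3 was. Over all libraries left out in turn it ranged from 0 to 4. With the replicate number within line and time as a block, 16 of 39 genes were called at 72 h (background 9.78%), among them RELB (adjusted p = 0.000121), CFLAR (0.000547), CD83 (0.00166), CYLD (0.00208) and CCL22 (0.0133).

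**Figure D5:**
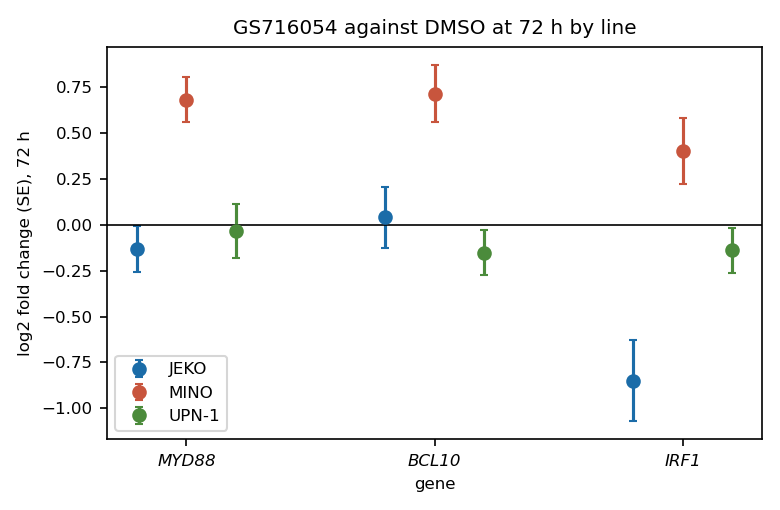
Log2 fold change of GS716054 over DMSO at 72 h with its standard error for MYD88, BCL10 and IRF1 in JEKO, MINO and UPN-1. The MINO points lie at 0.68, 0.71 and 0.40, and the JEKO point of IRF1 lies at -0.85.

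Other genes around the pathway also moved in MINO. They came from lists kept apart from the 39 but chosen, as the 39 were, with earlier results of these data known. Their counts describe these data and are no independent support. Of 11 tested receptors that feed NF-kappaB in B cells, 5 rose at 24 h and 2 at 72 h, with no call for a fall. Over all genes, 1.44% and 3.51% were called higher. With the block, 8 rose at 24 h (8.43% of all genes), and at 72 h 5 rose (10.4%) and 2 fell (9.8%). TLR6 rose from 22.02 ± 3.17 to 41.9 ± 0.57 CPM (log2 0.90, adjusted p = 0.00837), TNFRSF13C, the BAFF receptor, from 130 ± 14.2 to 227 ± 35.4 CPM (0.78, adjusted p = 0.0178), and CD40 from 57.3 ± 13.2 to 111 ± 27.3 CPM (0.93, adjusted p = 0.0255), each as mean ± SD of 3 libraries at 24 h. Of 22 other known targets, 1 rose at 24 h and 3 at 72 h, beside the same shares of all genes. With the block, 9 of the 22 rose at 24 h, and at 72 h 8 rose and 2 fell. LTB, the membrane anchor of lymphotoxin and a ligand that drives the noncanonical arm, rose from 29.2 ± 9.2 to 142 ± 65.9 CPM at 24 h (log2 2.25, adjusted p = 0.00572) and from 32.9 ± 6.25 to 431 ± 92.6 CPM at 72 h (3.70, adjusted p = 0.000116). TNF rose at 72 h from 12.5 ± 2.34 to 39 ± 17 CPM (1.63, adjusted p = 0.0075), and CCR7, a homing receptor, by 1.10.

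In MINO, of 21 upstream adaptors, kinases and ubiquitin ligases, TANK rose at 24 h, TRAF5 and RIPK1 rose at 72 h and IRAK1 fell at 72 h. Over all genes, 1.44% and 3.51% were called higher at the 2 times, and 2.05% lower at 72 h. With the block, 6 of the 21 rose and 1 fell at 24 h, and 7 rose and 1 fell at 72 h. Over all genes the block called 8.43% higher and 7.36% lower at 24 h, and 10.4% and 9.8% at 72 h. IRAK1, a kinase downstream of MYD88, went from 454 ± 59.9 to 239 ± 69.7 CPM (log2 -0.94, adjusted p = 0.0208). Of 9 other brakes, PDLIM2 rose at 72 h. Beside the same shares, the block called 3 brakes higher at 24 h, and 2 higher and 1 lower at 72 h. No gene of the 4 lists was called in JEKO or UPN-1 without the block. With the block, 2 of the 61 genes tested from the 4 lists were called higher and 5 lower in JEKO at 72 h, beside 1.89% and 1.44% of all genes. In UPN-1, of 56 tested, 1 was higher and 1 lower at 24 h (0.918% and 0.577% of all genes), and 5 were higher and 6 lower at 72 h (4.18% and 3.29%). The receptors made up 1 of the higher and 4 of the lower calls in JEKO, and 3 and 1 of those in UPN-1 at 72 h.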

How the data were processed

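The authors deposited 1 table of raw counts per library, with whole reads per Ensembl gene identifier. The submitters' processing notes name HISAT2 2.2.1, HTSeq 0.13.5 and the build GRCh38; the annotation release and the strand setting are not given in the sources used here. Rows that name no gene were left out of library sizes (43.25% to 45.93% of reads per library were in no feature). The 39 genes and the further lists were chosen with earlier results of these data known. Counts were tested in R 4.3.3 with edgeR 4.0.16 (TMM scaling, filterByExpr with a minimum count of 10, quasi-likelihood test, two-sided, Benjamini-Hochberg adjustment over all genes tested, threshold 0.05). Treatment was tested in the 12 libraries of each line, and lines and interactions in all 36. Every adjusted p in the text comes from edgeR. DESeq2 1.42.0, other filters, scalings and libraries left out were alternatives, and the edgeR code was tested on simulated data.

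Replicate numbers come from the labels, which do not say what a number shared. Over genes, GS716054 and DMSO libraries of the same number deviated together in 5 of 6 comparisons (correlations 0.11 to 0.59); in JEKO at 24 h they were 0.13, 0.06 and 0.21. The replicate block within time was chosen after seeing the data. Genes given in every library were those called in a treatment comparison by either fit, limited to the 16 with the smallest p. The text also names other members with their fold changes. CPM per kb used the Ensembl canonical transcript length.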

Additional observations from a re-analysis of the deposited data

Results flagged for a closer look

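For 3 genes the effect of GS716054 at 72 h differed among JEKO, MINO and UPN-1 by edgeR's interaction test over all 36 libraries. The adjusted p was 0.0236 for MYD88, 0.0333 for BCL10 and 0.0311 for IRF1.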

How the results depend on the processing

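The counts of called genes among the 39 depended on the fit, and the cause was not tested. No gene called in a treatment comparison by either fit changed sign there under the alternatives run; genes not called were not followed. Shares in parentheses are those of all genes called in the same fit. Without a filter on low counts, 2 genes were called for JEKO at 72 h (1.14%), 20 (3.85%) and 11 (5.46%) for MINO at 24 h and 72 h, 1 for the MINO effect at 72 h against 24 h (0.315%), and 3 (0.764%) and 8 (1.67%) for the interaction. DESeq2 called 3 in JEKO at 72 h (1.36%) and 11 in MINO at 24 h (6.23%). With the replicate block within time, counts at 72 h were 3 for JEKO (3.34%) and 3 for UPN-1 (7.47%), those for MINO 22 (15.8%) and 15 (20.2%), 1 for the MINO effect between times (0.679%), and 11 (5.74%) and 16 (9.78%) for the interaction. A block shared by both times gave 14 (6.61%) and 11 (10.2%) in MINO, and within line 3 (1.37%) and 7 (2.94%) for the interaction. Only the 6 libraries compared gave 20 (18.2%) and 2 (0.691%) in MINO, and with the replicate block 25 (29.2%) and 11 (10.3%) for MINO and, at 72 h, 2 (3.37%) for JEKO and 1 (5.35%) for UPN-1. A fit of all 36 libraries gave 1 in JEKO at 72 h (0.389%). Leaving out 1 library gave 0 to 1 for JEKO at 72 h, 0 to 1 (24 h) and 1 to 8 (72 h) for MINO, and 0 to 4 for the interaction at 72 h. The share of all genes called is not given for any fit with a library or a pair left out. Without a library an arm holds 2 samples, and genes near 0.353 CPM rest on 3 reads.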
